A study of Mus musculus with 2 samples.

Results

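Solute carriers that bring glucose and amino acids into cells, and out of lysosomes, were compared between 2 microarrays of mouse bone marrow cells, 1 labelled GFP and 1 labelled Satb1. Members were taken by gene symbol from the platform annotation. A probe set was included where it had exactly 1 symbol and that symbol began with Slc1a, Slc2a, Slc6a, Slc7a, Slc36a, Slc38a or Slc43a and a number, or was Slc3a1 or Slc3a2. This gave 146 of 45037 probe sets, for 75 of 18193 genes. Of the 75 symbols, 71 name transporters. The other 4 (Slc2a4rg-ps, Slc7a6os, Slc36a1os and Slc6a19os) meet the rule by spelling only. They are a pseudogene and genes on the opposite strand of a transporter gene. Counts and medians of members include them, and their own values are given apart. 1 probe set with a member symbol and a second symbol was left out and read 12.8 and 7.1 on the arrays labelled GFP and Satb1.

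Both arrays were hybridised with biotinylated cRNA from Trizol-extracted total RNA of cells of wild-type C57BL6J mice, labelled as LSK Flt3-. These are marrow cells without lineage markers that carry Sca-1 and high c-Kit and lack the receptor Flt3, a fraction rich in blood stem cells. The cells of the control array were transduced with GFP, and those of the other with Satb1, which encodes a nuclear organiser of chromatin. The labels do not give the vector, the time after transduction, or the age of the animals and their number per array. With 1 array per group no difference below has a replicate check, a standard error or a test.

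The values are MAS5 intensities, a single brightness in arbitrary units on a linear scale for the probe pairs of a probe set. Intensities of different probe sets cannot be set against each other as transcript levels. A floor of 61.7, the median over both arrays together, replaced lower values before log2 differences (Satb1 minus GFP) were computed. A gene is termed expressed here where the probe set that stands for it, the one with the highest mean log2 intensity, was above the floor on at least 1 array. Where only 1 array was above the floor, the floored difference is a bound, which is marked by the words "at least".

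Several values bear on the labels. The brightest of 5 Satb1 probe sets read 1116 under the GFP label and 909 under the Satb1 label, and none of the 5 was higher on the latter, so the transcript went against the label and every direction here rests on the labels. It is not known here whether those probe sets lie in the transduced sequence. All 5 measured markers of the stem and progenitor list were above the floor on both arrays, with Kit at 3293 and 3388 and Slamf1 at 95.7 and 233. A second Kit probe set read 231.8 and 173.7, and the other Slamf1 probe sets were below the floor on both arrays. Flt3, the gene of the receptor that the cell label gives as absent, read 1390 and 1334. The arrays read transcript, so these values do not show whether the receptor was on the cells. Of 5 measured lineage antigens, Cd3e, Cd4 and Ms4a1 were below the floor on both arrays, and Cd8a (88.9 and 148) and Itgam (127 and 121) were above it. The Cd8a value came from a probe set that can match several transcripts, and the other Cd8a probe sets were below the floor on both arrays. Ly6a, the gene of Sca-1, was not analysed here. Markers of other blood cells differed between the arrays. All 7 neutrophil granule genes were higher on the array labelled Satb1 (median log2 difference 1.56) and all 5 measured mast cell and basophil genes lower (median -1.13). All 6 megakaryocyte genes (median 0.13) and all 4 expressed erythroid genes (median 0.38) were higher by any amount. Of all genes above the floor on both arrays, 45.7% were higher and 54.3% lower. The megakaryocyte differences were small for Pf4 (0.13), Itga2b (0.13), Vwf (0.12) and Gp9 (0.05), and larger for Ppbp (0.81) and Gp1bb (0.74). A second Gp1bb probe set went the opposite way, at 70.6 and 61.6. The part of these marker genes in the transporter values was not tested. In bulk RNA, fewer cells of a type and less RNA per cell cannot be told apart.

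Glucose enters most cells by facilitated diffusion through the GLUT proteins, encoded by Slc2 genes, and is trapped inside by hexokinases. Amino acids move through several families. The CD98 heavy chain, encoded by Slc3a2, pairs with light chains of the Slc7 family that exchange large neutral, cationic or acidic amino acids, several other Slc7 proteins carry arginine and lysine on their own, and Slc1, Slc38 and Slc6 carriers use the sodium gradient. Proteins of the Slc36 and Slc38 families at the lysosome release amino acids and report to mTORC1, the kinase complex that couples growth to nutrients.

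Of the 75 genes, 42 were expressed, and in the remaining 33 neither array passed the floor. Of the 42, 35 were above it on both. With values floored, 0 of the 42 were higher and 0 lower by 2-fold. For 7 of the 42 the difference is a bound, and 1 of these, Slc2a4, was over 2-fold apart as read (88.1 and 22.8). Among all 11048 expressed genes, 0.272% were at least 2-fold higher and 0.86% at least 2-fold lower, 30 and 95 genes (54 and 60 after quantile normalization), so a count of 0 among 42 is near that background. At 1.5-fold, 1 member was higher (Slc7a11) and 3 lower (Slc38a6, Slc6a12 and Slc2a4rg-ps), beside 1.75% and 3.91% of all expressed genes. The members' floored differences ran from -0.78 to 0.60 on the log2 scale, with a median of -0.16, against -0.02 over all expressed genes. For the 40 expressed genes that name transporters, the median was -0.15. The median was 0.00 over the 18 members above a floor at the 75th percentile.

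**Figure D1:**
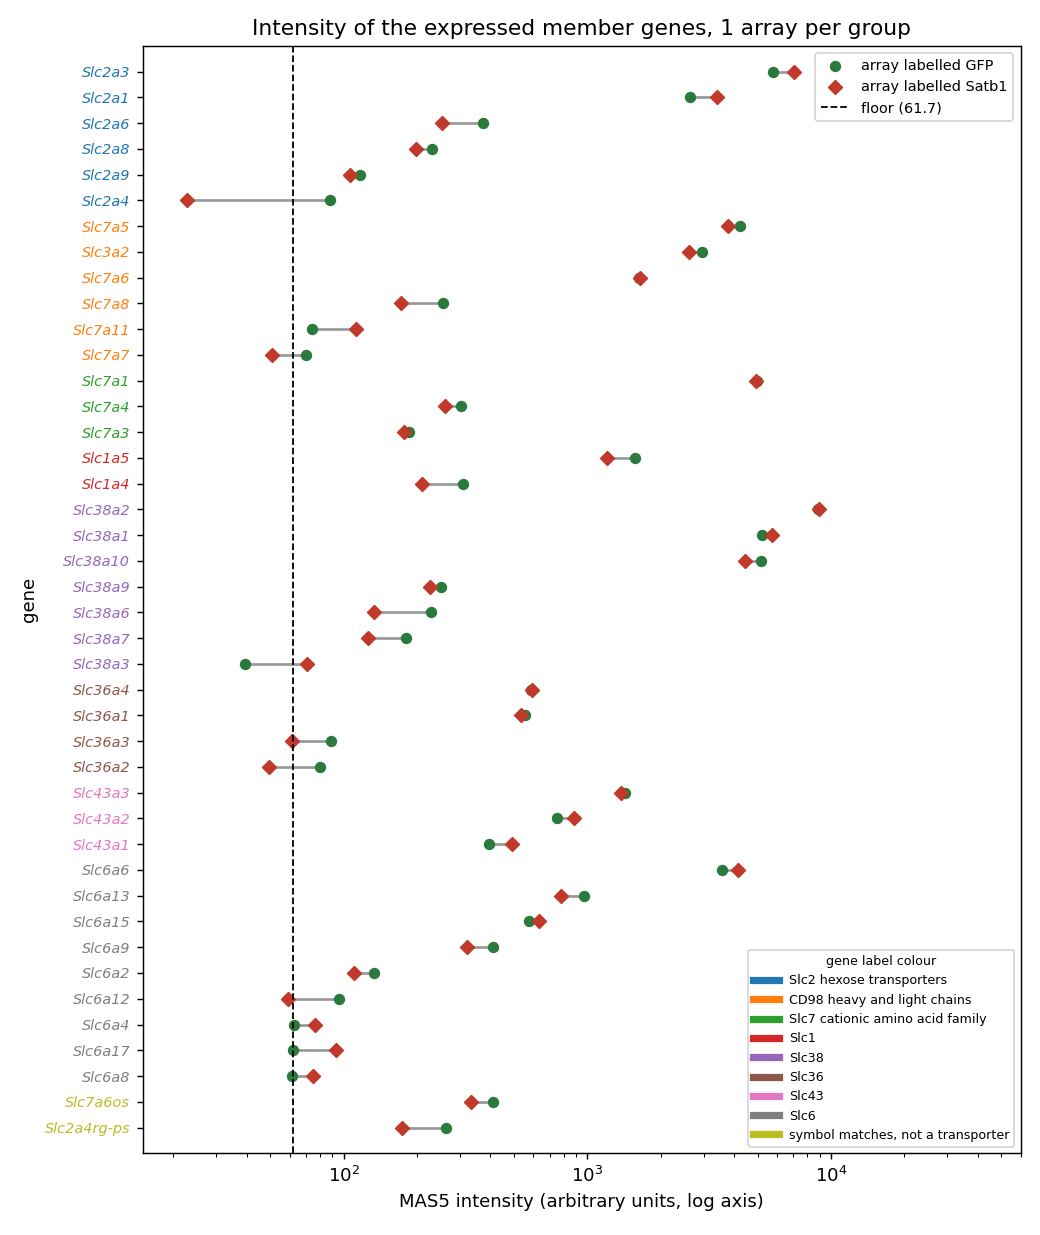
MAS5 intensity (log axis) of the 42 expressed member genes on the array labelled GFP (circles) and the array labelled Satb1 (diamonds), 1 array each, with gene names coloured by family and a dashed line at the floor of 61.7. Slc2a3 and Slc2a1 lie to the right on the array labelled Satb1, Slc2a4 crosses the floor, and no pair above the floor is 2-fold apart.

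Among the 11 hexose transporter genes, 6 were expressed, 2 higher and 4 lower on the array labelled Satb1 (3 and 3 after quantile normalization, where Slc2a9 turned to 0.02). The 2 higher ones were the genes of glucose carriers well known from blood cells. Slc2a1, encoding GLUT1, read 2641 under the GFP label and 3409 under the Satb1 label, a log2 difference of 0.37. Its other probe sets went the same way, from 1447 to 1906 (0.40) and from 788 to 875 (0.15). Of the 3, the last alone lacks a suffix for matching several transcripts, which may be transcripts of the same gene. Slc2a3, encoding the high-affinity carrier GLUT3, read 5767 and 7053 (0.29), and a second probe set read 2780 and 3463 (0.32). All 5 of these probe sets were therefore higher on the array labelled Satb1. The Slc2a3 pair carries the suffixes of probe sets that can match several transcripts, and the gene's 2 other probe sets were below the floor, at 45.5 and 52.0 and at 6.1 and 52.7.

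The remaining expressed hexose genes were dimmer, and all were lower. Slc2a6, encoding GLUT6 of the lysosome, read 372 under the GFP label and 255 under the Satb1 label (-0.55). Slc2a8, encoding the intracellular carrier GLUT8, read 231 and 198 (-0.22). Slc2a9, encoding the urate carrier GLUT9, read 117 and 106 (-0.14), with a second probe set at 68.0 and 52.7. Slc2a4, the gene of the insulin-responsive GLUT4 of muscle and fat, read 88.1 and 22.8 and was at least 1.43-fold lower, while a second probe set was near background (23.9 and 3.1). Each of the first 2 genes has 1 probe set. Slc2a2, Slc2a5, Slc2a10, Slc2a12 and Slc2a13 were below the floor.

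Sequences upstream of the members' starts were searched for a pair of motifs known from nutrient and stress control. These are the E-box CACGTG, which Myc and the lysosomal regulator Tfeb can bind, and TGATGNAA, the core of the C/EBP-ATF response element through which Atf4 acts when amino acids are scarce. RefSeq (GRCm38.p6) gave windows from 250 bases before to 50 after a start for 55 of the 75 genes, 76 windows in all. On either strand, the E-box was found in windows of 9 genes, 9 of 76 windows, and in 7.15% of all 32851 windows. The response element was found in windows of 4 genes, 5 of 76 windows, and in 3.97% of all windows. The expressed members with an E-box were Slc36a1, Slc38a7 and Slc43a1, and those with a response element Slc1a4, Slc7a7 and Slc7a11. Each set held genes read both higher and lower. No match overlapped one of the other motif. Such a match is a run of letters and not a shown binding site. The 250 bases before the start of Slc2a1 (chr4:119108495-119108744, plus strand), printed because its 3 probe sets went the same way, held neither motif:
Slc2a1: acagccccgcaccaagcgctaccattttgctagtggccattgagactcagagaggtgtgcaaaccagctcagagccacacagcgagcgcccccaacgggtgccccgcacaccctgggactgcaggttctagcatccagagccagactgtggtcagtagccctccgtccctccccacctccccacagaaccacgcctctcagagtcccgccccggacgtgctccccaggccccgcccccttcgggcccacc

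The CD98 complex is a main route of leucine and other large neutral amino acids into dividing cells. Of the 12 genes of the heavy chains and their light chains, 6 were expressed, 2 higher and 4 lower (Slc7a6 turned after quantile normalization), with a median log2 difference of -0.17. Slc3a2, the CD98 heavy chain, read 2961 under the GFP label and 2612 under the Satb1 label (-0.18). Slc7a5, its partner LAT1, read 4233 and 3769 (-0.17). Both chains thus read slightly lower, each from 1 probe set, and that of Slc3a2 can match several transcripts. Slc7a6, the y+LAT2 chain that exchanges cationic for neutral amino acids, read 1635 and 1638 (0.00, and -0.0036 after quantile normalization) and 1043 and 1192 by its second probe set (0.19).

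Slc7a8, encoding the light chain LAT2, read 256 and 172 (-0.57) from its single probe set. Slc7a7, the y+LAT1 chain whose loss causes lysinuric protein intolerance in humans, was near the floor at 70.3 and 51.0 and at least 1.14-fold lower. Slc7a11, encoding the cystine and glutamate exchanger xCT that feeds glutathione synthesis, read 74.2 and 112 (0.60). Its other probe set went the opposite way, at 81.8 and 55.6, so its direction was not settled. The 6 other genes of this group (Slc3a1, Slc7a9, Slc7a10, Slc7a12, Slc7a13 and Slc7a15) were below the floor. The 250 bases before the Slc7a11 start (chr3:50443614-50443863, minus strand) are shown because they hold the response element in both orientations, in capitals:
Slc7a11: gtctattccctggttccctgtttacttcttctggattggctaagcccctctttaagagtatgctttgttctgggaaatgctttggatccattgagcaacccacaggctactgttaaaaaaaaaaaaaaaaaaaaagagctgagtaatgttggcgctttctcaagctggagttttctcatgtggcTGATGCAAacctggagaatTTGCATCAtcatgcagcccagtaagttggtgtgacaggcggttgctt

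Of 5 cationic carrier genes, 3 were expressed, all lower (Slc7a1 and Slc7a3 turned under another scaling), with a median of -0.06. Slc7a1, encoding CAT1, the main arginine and lysine carrier of many cells, read 4978 under the GFP label and 4945 under the Satb1 label (-0.01, and 0.01 after centring on the median of all expressed genes), and 1743 and 2140 by a second probe set (0.30). Slc7a3, encoding CAT3, read 185 and 178 (-0.06, and 0.09 after quantile normalization). Slc7a4, a family member of uncertain function, read 303 and 261 (-0.22) and, by a second probe set, 234 and 223. Slc7a2 and Slc7a14 were below the floor.

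The sodium-coupled Slc1 family includes the glutamine carrier ASCT2 and the carriers of glutamate. Slc1a5, encoding ASCT2, read 1570 under the GFP label and 1205 under the Satb1 label (-0.38), while its second probe set was level at 209 and 210. Slc1a4, encoding the alanine, serine and cysteine carrier ASCT1, read 309 and 211 (-0.55) by a probe set that can match several transcripts, but 163 and 212 (0.38) by another and 73.7 and 69.4 by the third. The direction for Slc1a4 thus depended on the probe set. The 5 genes of the glutamate carriers, Slc1a1, Slc1a2, Slc1a3, Slc1a6 and Slc1a7, were below the floor.

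Of the 9 Slc38 genes, 7 were expressed, 3 higher and 4 lower (Slc38a2 turned after quantile normalization). Slc38a2, encoding the amino acid carrier SNAT2 that adapts to scarcity, read 8870 under the GFP label and 8951 under the Satb1 label (0.01, and -0.05 after quantile normalization). Its other probe sets read 1134 and 1083, and 134 and 97.8. Slc38a1, encoding the glutamine carrier SNAT1, read 5192 and 5744 (0.15) by a probe set that can match several transcripts and 647 and 987 (0.61) by the other. Both Slc38a1 probe sets were higher. Slc38a10 read 5166 and 4422 (-0.22), and its 6 probe sets above the floor ran from -0.57 to 0.69, both ends from dim probe sets. Slc38a3, encoding the glutamine carrier SNAT3, read 39.2 and 70.9 and was at least 1.15-fold higher.

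The remaining expressed Slc38 genes were lower on the array labelled Satb1. Slc38a9, encoding the lysosomal arginine sensor that acts on mTORC1, read 251 and 226 (-0.15), and its 6 probe sets above the floor ran from -0.58 to 0.02, 5 of them below 0. Slc38a7, encoding the carrier SNAT7 that exports glutamine and asparagine from lysosomes, read 180 and 126 (-0.52) from 1 probe set. Slc38a6, encoding SNAT6, read 228 and 133 (-0.78) by 1 probe set, with the other near background at 3.6 and 4.7. Slc38a4 and Slc38a5 were below the floor. The window of Slc38a7 (chr8:95853492-95853741, minus strand) is shown with its E-box in capitals, as that of a lysosomal carrier read lower:
Slc38a7: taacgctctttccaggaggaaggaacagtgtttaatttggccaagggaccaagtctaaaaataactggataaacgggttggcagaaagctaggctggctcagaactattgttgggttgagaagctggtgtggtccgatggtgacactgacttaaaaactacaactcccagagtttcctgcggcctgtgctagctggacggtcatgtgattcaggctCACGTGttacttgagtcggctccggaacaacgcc

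All 4 genes of the Slc36 family, which includes proton-coupled carriers of small amino acids, were expressed. Slc36a1, encoding the lysosomal carrier PAT1, read 556 under the GFP label and 535 under the Satb1 label (-0.05). Slc36a4, a high-affinity carrier of tryptophan and proline, read 590 and 592 (0.01). Slc36a2 (80.3 and 49.6) and Slc36a3 (88.8 and 61.5) were above the floor on the array labelled GFP alone and were at least 1.30-fold and at least 1.44-fold lower. The members of this family with firmer signal were thus level, and the pair that was lower lay near the floor.

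The Slc43 family mediates facilitated transport of large neutral amino acids. Slc43a1, encoding LAT3, read 395 under the GFP label and 493 under the Satb1 label (0.32). Slc43a2, encoding LAT4, read 751 and 879 (0.23), but its second probe set went the other way, at 254 and 213. Slc43a3, which in humans transports purine nucleobases, read 1424 and 1373 (-0.05). The Slc43a1 window (chr2:84840073-84840322, plus strand) is printed with its E-box in capitals, as that of a member read higher, to set beside the window of Slc38a7:
Slc43a1: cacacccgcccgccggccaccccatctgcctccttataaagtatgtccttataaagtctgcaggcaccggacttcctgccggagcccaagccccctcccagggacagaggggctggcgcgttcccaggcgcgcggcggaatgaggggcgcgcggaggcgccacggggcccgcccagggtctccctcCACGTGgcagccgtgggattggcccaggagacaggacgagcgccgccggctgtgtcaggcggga

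Many of the 20 measured Slc6 genes encode carriers of neurotransmitters, and 9 were expressed, 5 higher and 4 lower. Slc6a6, encoding the taurine carrier, read 3579 under the GFP label and 4174 under the Satb1 label (0.22), and 1030 and 1137 by its second probe set (0.14). Slc6a13, encoding a carrier of GABA and taurine, read 970 and 778 (-0.32). Slc6a15, encoding a carrier of branched-chain amino acids and proline, read 578 and 632 (0.13). Slc6a9, encoding the glycine carrier GLYT1 on which heme synthesis of erythroid cells draws, read 409 and 322 (-0.34) and 140 and 118 by its second probe set (-0.24). Slc6a6 was thus higher, and Slc6a9 lower, by each of 2 probe sets above the floor. The other Slc6a6 probe sets were below it on both arrays, at 16.5 and 28.7 and at 9.9 and 12.3.

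The other expressed Slc6 genes lay near the floor. Slc6a2, encoding the noradrenaline carrier, read 134 and 111 (-0.27). Slc6a12, encoding the betaine carrier, read 95.6 and 59.3 and was at least 1.55-fold lower. Slc6a17, encoding a vesicle carrier of neutral amino acids in neurons, read 62.2 and 92.8 (0.58), and Slc6a4, encoding the serotonin carrier, 62.6 and 76.5 (0.29). Slc6a8, encoding the creatine carrier, read 61.3 and 75.2 and was at least 1.22-fold higher. All other probe sets of Slc6a2, Slc6a17 and Slc6a8 were below the floor on both arrays. These 5 genes held values in both directions. The 11 below the floor were Slc6a3, Slc6a5, Slc6a7, Slc6a11, Slc6a14, Slc6a16, Slc6a18, Slc6a19, Slc6a20a, Slc6a20b and Slc6a21. Of the 4 symbols that do not name a transporter, Slc2a4rg-ps read 263 and 174 (-0.60) and Slc7a6os 409 and 334 (-0.29), while Slc36a1os and Slc6a19os were below the floor.

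Whether a gene's probe sets moved alike was the only check that these arrays allowed. Of 15 members with at least 2 probe sets that passed the floor on each array, 8 had all of them on the same side of 0: Slc2a1, Slc2a3, Slc38a1, Slc6a6 and Slc7a6 higher (Slc7a6 turning to -0.0036 after quantile normalization), and Slc6a9, Slc7a4 and Slc7a6os lower. That is 53.3% of the 15, against 47.8% of the 4840 genes of the whole table with as many probe sets. Probe sets of a gene are read from the same RNA on the same array, so their agreement says nothing of how another preparation would read.

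**Figure D2:**
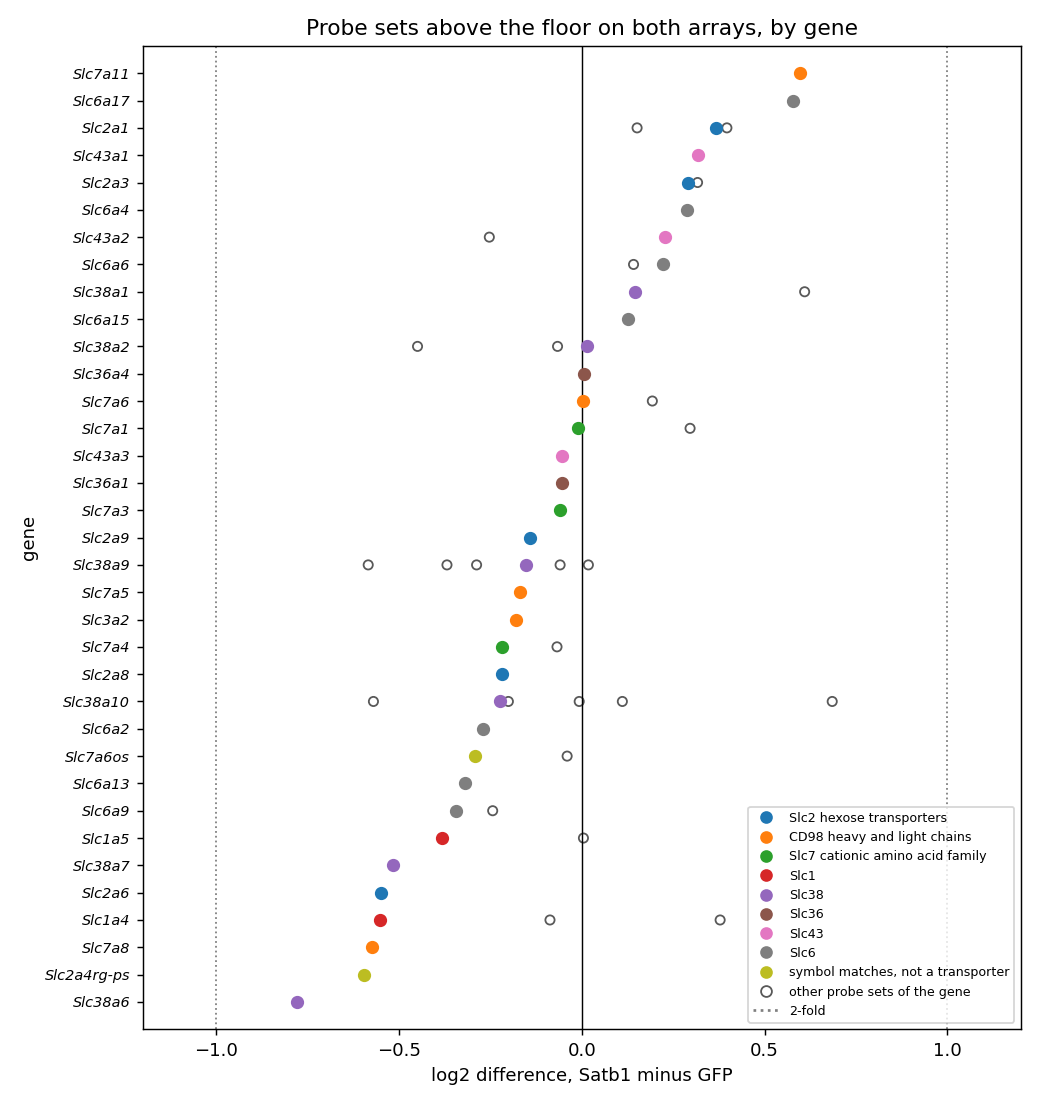
Log2 difference, Satb1 minus GFP, for the 35 member genes above the floor on both arrays, ordered by the probe set that stands for the gene (filled, coloured by family), with other probe sets of the gene that passed the floor on each array as open circles and dotted lines at 2-fold. Probe sets of Slc2a1 and Slc2a3 lie together above 0, while those of Slc1a4 and Slc38a10 fall on both sides of it.

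Probe sets were sorted into bands of mean intensity, and the spread between probe sets of a gene in the same band was taken. It shrank with intensity, and the differences were read against it. This within-gene SD was, in log2 units, 0.36 at mean intensities under 200, 0.28 from 200 to 500, 0.19 from 500 to 2000 and 0.13 above 2000. Probe sets of a gene in different bands were not set against each other. Over all bands together the SD was 0.27. Of the 35 members above the floor on both arrays, 2 were higher by at least 2 such SD, Slc2a1 (2.76 SD) and Slc2a3 (2.18 SD), where 3.09% of all 10316 genes were. Lower by at least 2 SD were 3, Slc38a6 (-2.17 SD), Slc2a4rg-ps (-2.15 SD) and Slc7a8 (-2.07 SD), where 5.37% of all genes were. Just short of it were Slc1a4 (-1.99 SD), Slc2a6 (-1.98 SD) and Slc1a5 (-1.98 SD). The remaining 30 members were within 2 SD. With 0.27 at all intensities, Slc2a1 (0.37) and Slc2a3 (0.29) would be within 2 SD. The 3 lower members would stay past it, and dimmer members such as Slc7a11 (0.60) would pass it. Either SD leaves out error shared by a gene's probe sets and is not the error of a difference between arrays.

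By direction alone, 13 of the 35 were higher and 22 lower, beside 45.7% higher and 54.3% lower among all genes above the floor on both arrays. Of the 33 transporter genes among the 35, 13 were higher and 20 lower. The median log2 difference was -0.14 for the 35, -0.06 for those 33 and -0.02 for all genes above the floor on both arrays. The split varied with intensity. Of the 9 members with a mean above 2000, 5 were higher and 4 lower, with a median log2 difference of 0.01 against 0.03 for all 2570 genes of that band. Of the 8 from 500 to 2000, 4 were higher and 4 lower (median -0.02, all genes -0.03). Of the 10 from 200 to 500, 1 was higher, Slc43a1, and 9 lower, with a median of -0.32 against -0.08 for all 1982 genes of the band, of which 37.1% were higher. Slc2a4rg-ps and Slc7a6os, which do not name transporters, were among the 9. Of the 8 under 200, 3 were higher and 5 lower (median -0.10, all genes -0.10). The band from 200 to 500 was thus where the members' median lay furthest from that of all genes, and there the whole table also leaned lower.

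**Figure D3:**
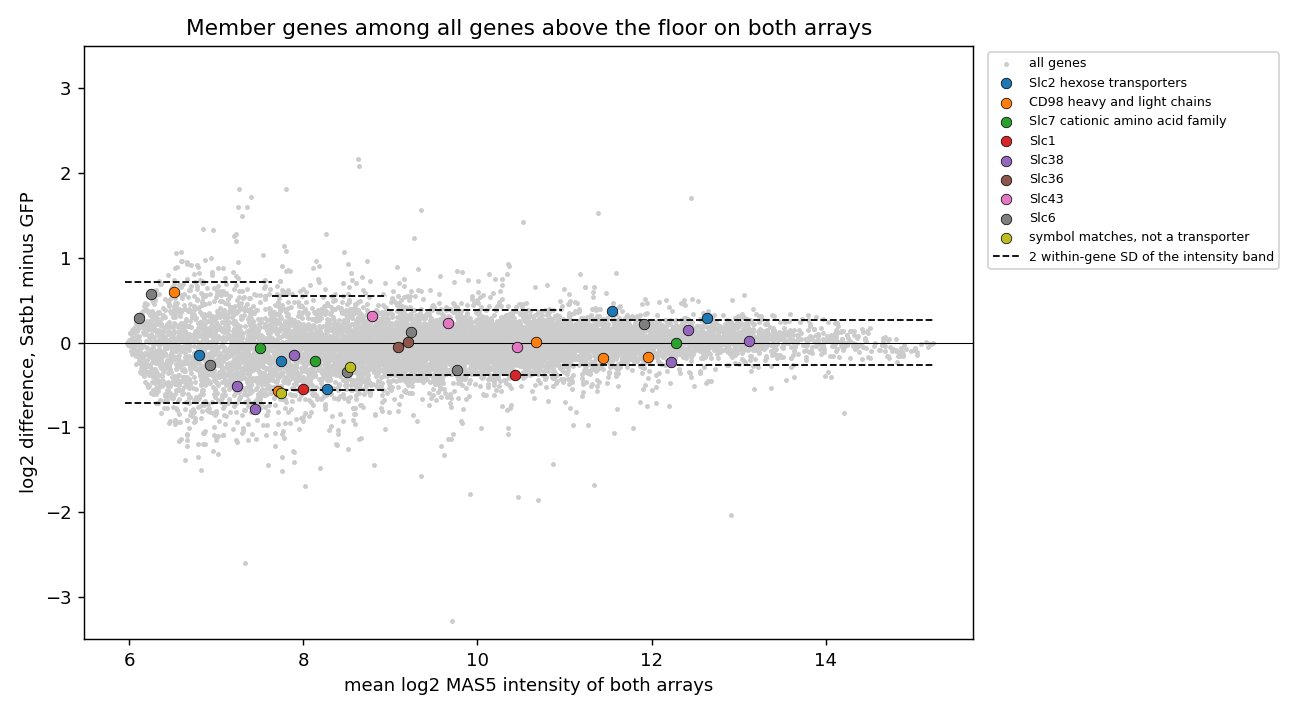
Log2 difference, Satb1 minus GFP, against mean log2 MAS5 intensity for all 10316 genes above the floor on both arrays (grey) and the 35 members among them (coloured by family), with dashed lines at 2 within-gene SD of each intensity band. Slc2a1 and Slc2a3 lie above the upper line at the bright end, and most members between 200 and 500 lie below 0.

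Genes that act with these transporters were compared as 4 further lists. Of the 12 measured genes of glucose trapping and transporter trafficking, 1 was 2-fold lower and 11 were within 2-fold, with a median log2 difference of 0.06. Hk3, encoding hexokinase 3 of myeloid cells, read 4399 under the GFP label and 2098 under the Satb1 label (2.10-fold lower), and 1782 and 1021 by its other probe set. Hk1 read 3003 and 2505 (-0.26) and Hk2 3312 and 3707 (0.16). Txnip, which encodes a protein that draws GLUT1 off the membrane, read 5062 and 5352 (0.08), and Rab10, a GTPase of GLUT4 vesicles, 4103 and 4280 (0.06). A second Txnip probe set read 681 and 645 (-0.08). Of the hexokinase genes, then, Hk3 alone was 2-fold apart.

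Of 17 other sugar, monocarboxylate and peptide transporters, 13 were expressed, 0 of them were 2-fold apart with values floored, and the median was -0.14. Slc16a1, encoding the lactate carrier MCT1, read 6522 and 7301 (0.16), and Slc16a6 1126 and 1214 (0.11). Slc50a1, encoding the sugar efflux carrier SWEET1, read 949 and 648 (-0.55). The list thus held values in both directions, as the expressed members did as a whole, though not within every family.

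Of the 26 measured genes of mTORC1 and lysosomal amino acid sensing, 25 were expressed, 1 was 2-fold lower, 24 were within 2-fold, and the median was -0.08. Castor2, encoding a relative of the arginine sensor Castor1, read 225 and 112 (2.02-fold lower), and 161 and 107 by its second probe set. Rheb, the GTPase that activates mTORC1, read 7155 and 7687 (0.10), and Lamtor1, which helps anchor the complex at the lysosome, 7398 and 6544 (-0.18). The other Lamtor1 probe sets went the opposite way, at 2973 and 3235 (0.12) and at 839 and 1021 (0.28), so its direction was not settled. Of the 20 measured genes of the amino acid starvation response, 19 were expressed, 0 were 2-fold apart, and the median was -0.03. Phgdh, which opens serine synthesis, read 11969 and 10804 (-0.15), Atf4, the factor of that response, 6638 and 7372 (0.15), and Asns, its target asparagine synthetase, 3524 and 3440 (-0.03). A second Asns probe set went the opposite way, at 3242 and 3694 (0.19). Atf3, a stress factor, had the largest difference of the list, at 76.3 and 144 (0.92).

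**Figure D4:**
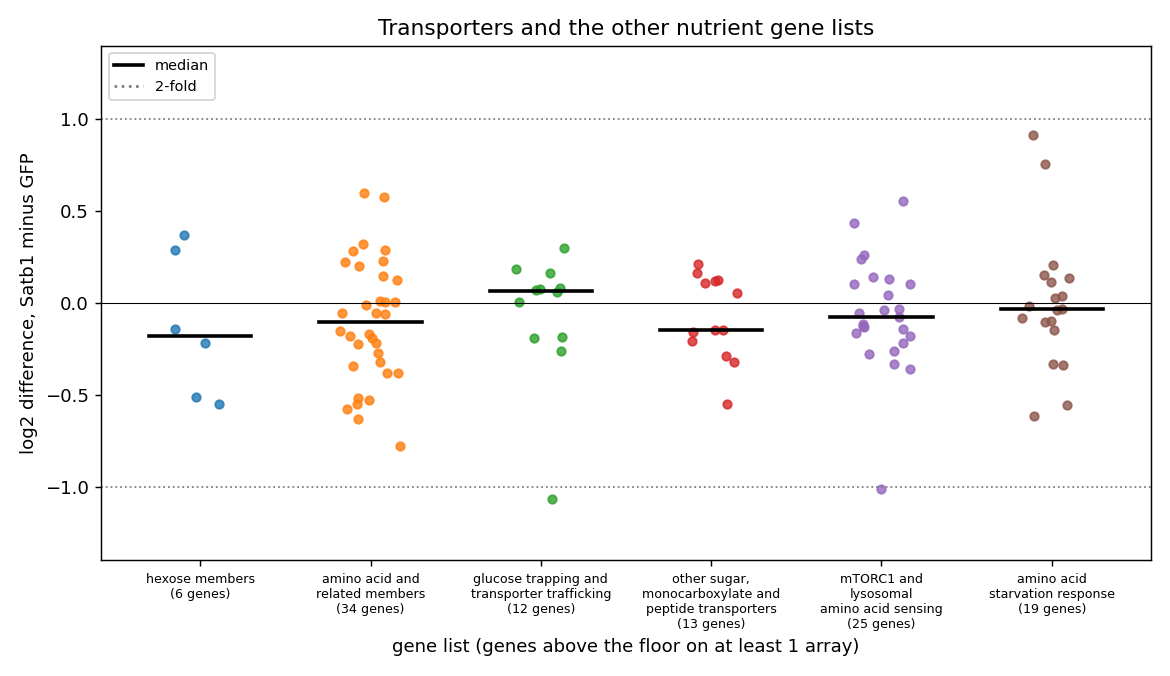
Log2 difference, Satb1 minus GFP, of each expressed gene (points) with the median (bar) for 6 hexose transporter members, 34 amino acid and related transporter members and the 4 further lists of 12, 13, 25 and 19 expressed genes, with dotted lines at 2-fold. Hk3 and Castor2 alone lie past the lower line, and the medians run from -0.18 to 0.06.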

How the data were processed

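Each of 2 samples was measured on 1 Affymetrix array. The deposited values were made with MAS5, per the submitters' processing notes, and are linear intensities per probe set, with no version, scaling target or genome build given in the sources used here. The mean of all probe sets without the lowest and highest 2% was 497 on both arrays. Arrays have no read depth, and their number limits the precision. Python 3.11.15, numpy 2.4.6, pandas 2.3.3 and matplotlib 3.10.9 were used.

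Of 45037 probe sets, the platform annotation named 1 symbol for 34945, several symbols for 932 and none for 9160. They were brought up to date by Entrez ID against GRCm38.p6 (34741 matched), which changed 0 member symbols. Intensities were floored at 61.7, 1 probe set was kept for each gene, and 2-fold was the threshold. Every expressed member is named. Of each further list, all genes at 2-fold and the 2 with the highest intensities are named, and others were chosen after their values were seen. The comparison with the within-gene SD was also chosen then. Members and lists were chosen with earlier results of these data known. Alternative floors, scalings, probe set rules and a 1.5-fold threshold were tried. The code was tested on simulated data.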

Additional observations from a re-analysis of the deposited data

How the results depend on the processing

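With 1 array per group, no array could be left out, and no paired analysis was possible because each group has a single array. The counts of 0 members higher and 0 lower by 2-fold held after quantile normalization. They were also 0 under a 75th-percentile floor and after centring on the median of all expressed genes. The same was read with the mean over probe sets and without probe sets matching several transcripts. Quantile normalization apart, none of these settings could have given another count. A higher floor only shrinks floored differences, centring moved them by 0.02, and no member probe set was 2-fold apart with values floored. The counts were 2 higher and 4 lower under a 25th-percentile floor (14.7), 5 and 8 with no floor, and 1 and 3 at 1.5-fold. Slc2a4 (88.1 and 22.8) was above the main floor on 1 array, and the other 5 at the floor of 14.7 were below 61.7 on both. A floor at 443 (75th percentile) left 18 expressed, and having none left 75, as follows from those floors, and 39 to 60 in the other settings. The median log2 difference of -0.16 turned to 0.0041 at that higher floor, which leaves fewer and brighter genes, and lay between -0.16 and -0.05 otherwise.

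Directions of single members also depended on the choice of probe set and on scaling. With the mean over probe sets, 3 of 42 changed sign, and Slc43a2 became -0.01 and Slc38a2 -0.17. Without probe sets that can match several transcripts, Slc1a4 became 0.38, Slc2a1 fell to 0.15 and Slc2a3 was below the floor. Quantile normalization turned 4 of 42 and centring 1, all with small values. Of the 42, 7 were above the floor on 1 array alone, so their differences are bounds.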
